A study of Bos taurus with 23 samples.

Results

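The first-parity cows are the Holstein cows whose labels give parity number 1, that is, cows after a single calving. They are 12 of the 23 cows of the series, 7 labelled pregnant and 5 labelled non-pregnant, and their endometrial gene expression was compared between these labels across all genes and across the 50 biomarker genes that the study selected. The study asked which endometrial genes, measured before any embryo is present, differ between cows that later carry a pregnancy (R) and cows that do not (nonR). Each cow gave 1 endometrial biopsy on day 6 to 8 of dioestrus and received a single in-vitro produced embryo at the same stage of the next cycle, and pregnancy was read after slaughter between days 26 and 47. The labels name no other treatment for either group. The interval from calving to transfer ran from 128 to 261 days in the pregnant cows and from 130 to 219 days in the non-pregnant cows. The other 11 cows had parity number 2 or 3, 5 of them pregnant and 6 non-pregnant, and serve only as the comparison with other animals.

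The label describes the outcome of a later cycle, so a library shows the uterus of a cycle without a transfer, and the quality of the embryo is not part of the measurement. After ovulation the endometrium comes under progesterone from the corpus luteum. Its glands and stroma then change their secretion, matrix and receptors, and the bovine conceptus, which reaches the uterus within the first week and attaches late, depends on this secretion. A biopsy holds luminal and glandular epithelium, stroma, vessels and immune cells together, so for every gene below fewer cells of a type and less RNA per cell cannot be told apart.

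Before any comparison, 4 of these libraries stood apart. In a principal component analysis of variance-stabilized counts (vst) of the 12 cows, the first component held 43.9% of the variance and separated pregnant 22 (106.7), pregnant 23 (87.0) and non-pregnant 4 (47.1) from the other 9 cows, which lay at 0.24 or lower. The second component held 16.9% and separated pregnant 20 (98.0) from the other cows, at 1.56 or lower. Of 14954 genes tested, 1659 were over 2-fold higher in mean log2 CPM (counts scaled to library size after TMM normalization) in non-pregnant 4 and pregnant 22 and 23 than in the other 9 cows, and 2207 were over 2-fold lower. Each library held between 9171434 and 27357249 counts in genes. Reads outside genes were taken as a share of the reads in genes, outside genes or ambiguous. They took 43.7% to 75.5% in pregnant cows, highest in pregnant 20, 22 and 23, against 39.2% to 49.2% in non-pregnant cows. The means differed by 9.62 points (two-sided exact permutation test, p = 0.0909, or 0.273 after adjustment over the 6 measures taken, smallest possible p 0.001263), and the other 5 measures, among them depth, genes detected and days from calving, had p between 0.0568 and 0.563. In pregnant 5 the 10 most abundant genes took 34.1% of the counts. The part of these libraries in the results was not tested beyond the values given without them.

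**Figure D1:**
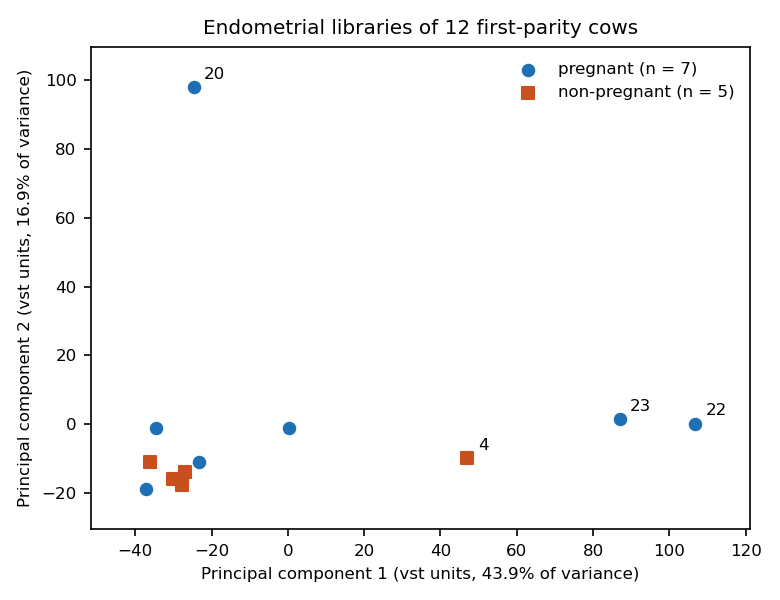
Position of each first-parity cow on the first and second principal component of variance-stabilized counts, in vst units, with circles for the 7 pregnant and squares for the 5 non-pregnant cows. Pregnant 22 and 23 and non-pregnant 4 lie to the right on the first component, and pregnant 20 lies at 98.0 on the second.

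No gene passed the test between pregnant and non-pregnant first-parity cows (edgeR quasi-likelihood test, 14954 genes, 0%, smallest Benjamini-Hochberg adjusted p = 0.712). An unadjusted p under 0.05 was found for 1041 genes (6.96%), of which 526 were higher (3.52%) and 515 lower (3.44%) in the pregnant cows. DESeq2's Wald test called 1 gene of 22481 (0.00445%) and gave an unadjusted p under 0.05 for 1667 genes (7.39%). The precision was limited, since the median gene had a standard error of 0.28 on the log2 scale and a 95% interval of 0.60 to either side of its log2 fold change, and for 27% of genes the interval reached more than 1 to either side. An estimated change of 2-fold or more was seen for 871 genes (5.82%). In 38 genes (0.254%) the groups did not overlap, 22 with every pregnant cow higher (0.147%) and 16 with every pregnant cow lower (0.107%).

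The genes with the smallest p are known only by their Ensembl identifiers, since no table pairs these with symbols. ENSBTAG00000015649 was measured at 13.3 to 23.7 CPM in the pregnant cows (median 16.2) and at 10.3, 13.3, 8.49, 9.61 and 8.50 CPM in non-pregnant 2, 4, 9, 13 and 16. All 7 pregnant cows lay above the 5 non-pregnant cows, the lowest only just above non-pregnant 4 (log2 fold change 0.78, SE 0.19, p = 0.0013, adjusted p = 0.712). ENSBTAG00000017177 was at 112.7 to 179.9 CPM in pregnant cows (median 138.2) and at 84.2, 103.9, 107.7, 89.5 and 99.5 CPM in the non-pregnant cows in the same order. Here too the groups did not overlap (log2 fold change 0.54, SE 0.13, p = 0.0015, adjusted p = 0.712).

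In the other direction, ENSBTAG00000010285 had the smallest p of all genes. It was at 2.17 to 11.3 CPM in pregnant cows (median 4.93) and at 9.50, 15.9, 28.7, 30.7 and 18.4 CPM in non-pregnant 2, 4, 9, 13 and 16. Only pregnant 8 reached the range of the non-pregnant cows (log2 fold change -1.96, SE 0.41, p = 0.00043, adjusted p = 0.712). ENSBTAG00000014328, the gene that DESeq2 called (adjusted p = 0.0073), was at 0.16 to 10.7 CPM in pregnant cows (median 0.99) and at 311.4, 60.4, 9.37, 91.8 and 15.2 CPM in the non-pregnant cows. Its values spread widely within both groups, pregnant 17 lay above non-pregnant 9, and edgeR did not call it (log2 fold change -5.03, SE 1.13, adjusted p = 0.712). In cows of parity 2 or 3 its log2 fold change was -0.12 (SE 1.20).

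**Figure D2:**
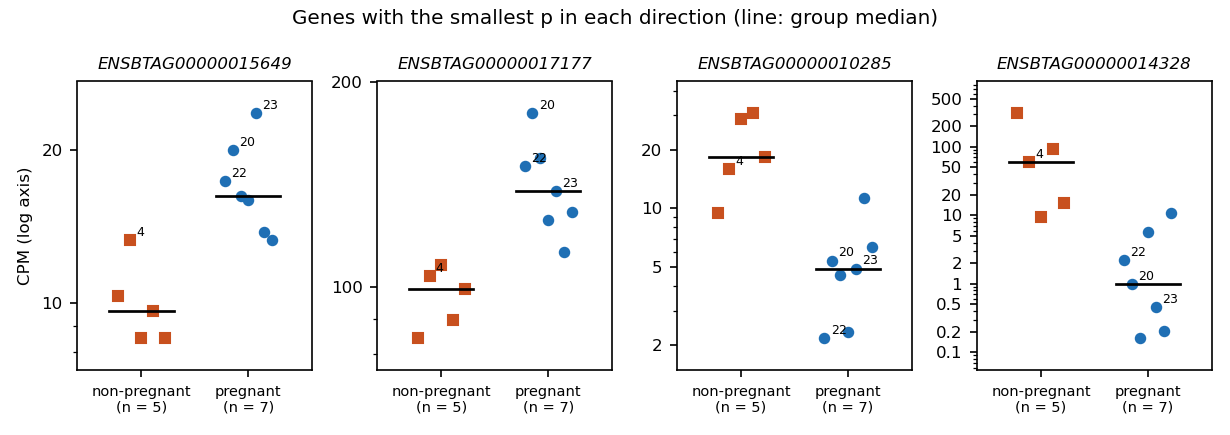
CPM in each first-parity cow, on a log axis, of the 2 genes per direction that had the smallest p, with squares for non-pregnant and circles for pregnant cows and a line at the group median. In both genes at the left every pregnant cow lies above every non-pregnant cow, and in both genes at the right 1 or more pregnant cows reach the non-pregnant range.

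The 50 biomarker genes comprise 32 that the study lists as more expressed (UP) and 18 as less expressed (DOWN) in R cows. The study chose them on data that include part of these cows, so their direction here is not independent evidence. All 50 were measured, and none passed the test (smallest adjusted p = 0.712). Their log2 fold changes had the listed sign in 37 genes. Of the UP genes 24 of 32 were higher in pregnant cows, beside 54.6% of all genes tested, with a median log2 fold change of 0.15 beside 0.036 over all genes. Of the DOWN genes 13 of 18 were lower, beside 45.4% of all genes, with a median of -0.10. An unadjusted p under 0.05 was reached by 2 of the 50, RIN3 and PAXIP1, beside 6.96% of all genes. In 36 of the 50 genes the 95% interval stayed within 1 of 0 on the log2 scale, so changes over 2-fold lay outside the interval for these. None of the 50 separated the groups without overlap, beside 0.254% of all genes.

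**Figure D3:**
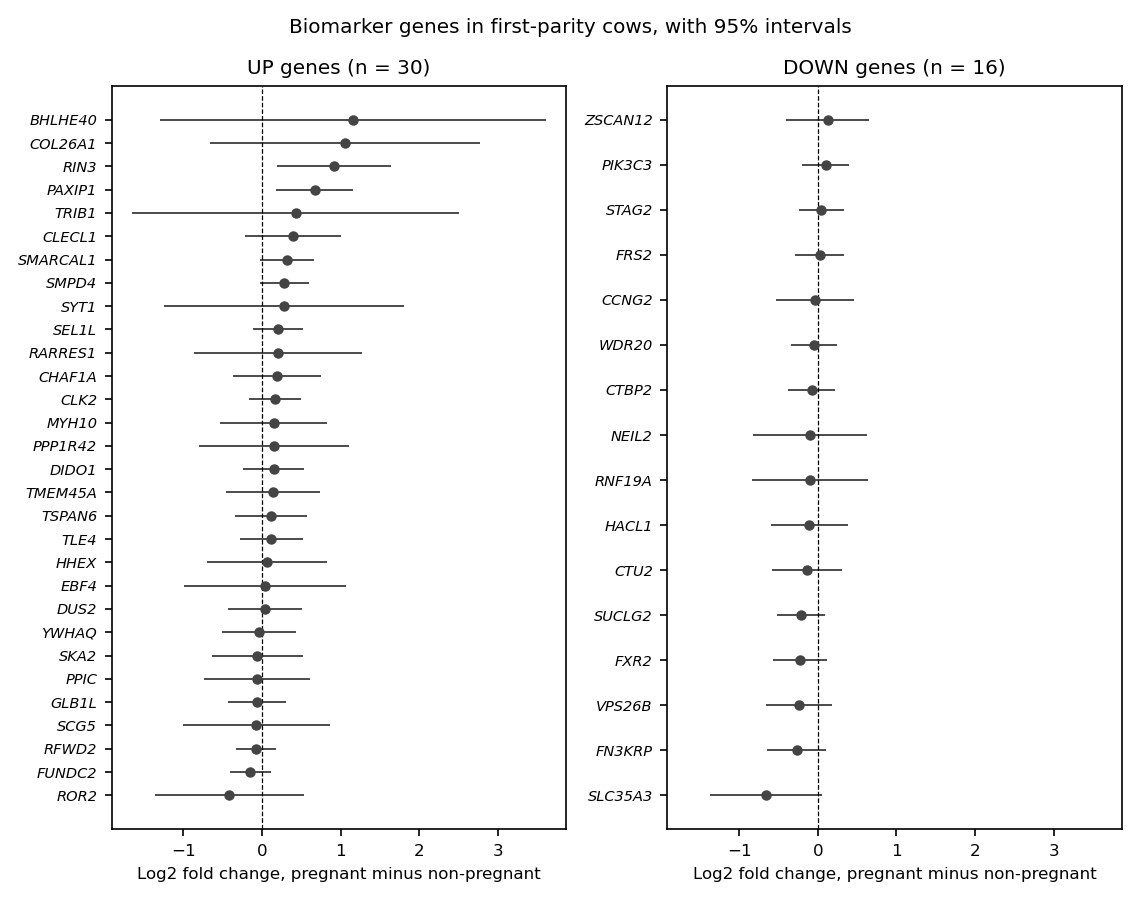
Log2 fold change of pregnant minus non-pregnant first-parity cows (7 against 5) for the UP genes at the left and the DOWN genes at the right, with bars for the 95% interval. The intervals of RIN3 and PAXIP1 lie above 0, and those of BHLHE40, TRIB1, COL26A1 and SYT1 are the widest of the UP genes.

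RIN3 and PAXIP1 had the clearest differences among the biomarker genes. RIN3, an exchange factor that activates Rab GTPases in early endocytosis, was at 2.99 to 9.84 CPM in pregnant cows (median 8.13) and at 3.33, 4.20, 3.77, 2.51 and 3.48 CPM in non-pregnant 2, 4, 9, 13 and 16. Above all non-pregnant cows lay 5 pregnant cows, and pregnant 17 (2.99 CPM) and 22 (3.51 CPM) lay among them. The group means were 6.56 ± 2.80 CPM (SD, n = 7) and 3.46 ± 0.63 CPM (SD, n = 5), with a log2 fold change of 0.92. That difference had an SE of 0.33 and an unadjusted edgeR p of 0.017 (adjusted p = 0.712).

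PAXIP1, a scaffold protein of the DNA damage response and of histone methyltransferase complexes, was at 7.75 to 18.5 CPM in pregnant cows (median 11.5) and at 6.72, 8.17, 7.83, 6.00 and 9.61 CPM in the non-pregnant cows. The highest non-pregnant cow was exceeded by 6 of the 7 pregnant cows, by pregnant 17 only narrowly, and pregnant 8 lay among the non-pregnant cows. The means were 12.2 ± 3.52 CPM and 7.66 ± 1.39 CPM, a log2 fold change of 0.67 (SE 0.23, p = 0.011, adjusted p = 0.712). The 3 highest values belonged to pregnant 20, 23 and 22. Without these and non-pregnant 4 the log2 fold change was 0.39 (SE 0.21, p = 0.095, adjusted p = 0.534). That of RIN3 was then 0.95 (SE 0.37, p = 0.028, adjusted p = 0.501).

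The other genes of DNA repair and chromatin also had the listed sign, 5 of 5 with PAXIP1. SMARCAL1, a helicase that protects stalled replication forks, was at 29.8 to 51.0 CPM in pregnant cows (median 40.2) and at 27.1, 43.3, 32.2, 31.2 and 28.3 CPM in non-pregnant 2, 4, 9, 13 and 16. Only pregnant 20 lay below the non-pregnant median (log2 fold change 0.31, SE 0.16, p = 0.071). CHAF1A, a subunit of the chromatin assembly factor that loads histones behind the replication fork, had a log2 fold change of 0.19 (SE 0.26). DIDO1, a chromatin reader, had 0.15 (SE 0.18), and NEIL2, a glycosylase that removes oxidized bases, -0.097 (SE 0.34). In cows of parity 2 or 3, 3 of these 5 genes had the listed sign.

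Genes of the matrix, cytoskeleton and cell surface were all listed as UP, and all 6 had log2 fold changes above 0, but the standard errors were large and none had an unadjusted p under 0.05. COL26A1, a collagen chain of the extracellular matrix, was at 28.4, 35.7, 40.3, 36.5 and 20.8 CPM in pregnant 20, 5, 7, 8 and 17, but at 1.34 and 1.83 CPM in pregnant 22 and 23. The non-pregnant cows 2, 9, 13 and 16 had 7.64, 16.7, 9.55 and 20.6 CPM, and non-pregnant 4 had 2.10 CPM. The 3 cows that stood apart on the first component were thus the 3 lowest of all 12, and the log2 fold change was 1.05 with an SE of 0.79 (p = 0.206).

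RARRES1, a membrane protein induced by retinoic acid, was at 38.1 to 445.8 CPM in pregnant cows (median 331.2) and at 139.1, 394.0, 305.8, 151.0 and 237.7 CPM in the non-pregnant cows. Pregnant 23 (38.1 CPM) and 22 (124.9 CPM) were the lowest of all 12 cows (log2 fold change 0.20, SE 0.49). MYH10, a non-muscle myosin heavy chain, was lowest in the same pregnant cows, at 92.1 and 106.8 CPM against 140.8 to 326.6 CPM in the other 10 (log2 fold change 0.15, SE 0.31). Non-pregnant 4 was the highest non-pregnant cow in both genes, at 394.0 CPM of RARRES1 and 230.3 CPM of MYH10. Without non-pregnant 4 and pregnant 22 and 23 the log2 fold change was 0.80 for RARRES1 (SE 0.26, p = 0.010). It was 0.49 for MYH10 (SE 0.21, p = 0.035, adjusted p = 0.484 for both). That step took out the lowest pregnant and the highest non-pregnant values of both genes. Of all genes, 10.1% then had an unadjusted p under 0.05. With 1 cow left out the log2 fold change ran from 0.050 to 0.44 for RARRES1 and from 0.025 to 0.28 for MYH10. CLECL1, a C-type lectin-like protein, was at 2.07 to 5.35 CPM in pregnant cows (median 4.23) and at 2.34 to 3.55 CPM in non-pregnant cows (median 2.87), with the 3 lowest values in pregnant 22, non-pregnant 4 and pregnant 23 (log2 fold change 0.40, SE 0.28). The membrane proteins TSPAN6 and TMEM45A had log2 fold changes of 0.12 (SE 0.21) and 0.14 (SE 0.27).

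Among the genes of membrane traffic and secretion, 3 of 6 had the listed sign. SYT1, the calcium sensor of vesicle exocytosis, was at 11.1, 12.8, 14.8, 10.1 and 12.2 CPM in pregnant 20, 5, 7, 8 and 17 and at 0.41 and 0.64 CPM in pregnant 22 and 23. The non-pregnant cows 2, 4, 9, 13 and 16 had 5.70, 4.98, 7.02, 12.1 and 6.74 CPM (log2 fold change 0.28, SE 0.70). Without non-pregnant 4 and pregnant 22 and 23 it was 0.63 (SE 0.24, p = 0.024, adjusted p = 0.484), and with 1 cow left out it ran from 0.11 to 0.53. SCG5, a chaperone of a prohormone convertase in secretory granules, was at 20.6 to 25.5 CPM in 9 cows and at 7.23, 4.93 and 6.24 CPM in pregnant 22, pregnant 23 and non-pregnant 4. Its groups coincided otherwise, and the log2 fold change was -0.072 (SE 0.43). Of the DOWN genes here, the retromer subunit VPS26B had a log2 fold change of -0.24 (SE 0.19), while PIK3C3, a lipid kinase of endosomes and autophagy, had 0.10 (SE 0.14), against its listed sign.

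The transcription factors and cofactors had the listed sign in 6 of 7 genes, with small differences in most. BHLHE40, a repressor that acts in the circadian clock and in stress responses, had the largest log2 fold change of the 50 genes, 1.15 with an SE of 1.13 (p = 0.327). It was at 11.6 to 543.6 CPM in pregnant cows (median 22.2) and at 21.4, 161.0, 17.6, 10.3 and 14.4 CPM in non-pregnant 2, 4, 9, 13 and 16. Pregnant 23 alone set the mean of its group, and non-pregnant 4 that of the other. Without pregnant 23 the log2 fold change was -0.79, and without non-pregnant 4 it was 2.66. TRIB1, a pseudokinase that directs proteins to ubiquitin ligases and belongs to the signalling genes, followed the same 2 cows, with 567.3 CPM in pregnant 23 and, in non-pregnant 4, 353.3 CPM, against 23.8 to 99.0 CPM in the other 10 cows (log2 fold change 0.43, SE 0.96). Without pregnant 23 its log2 fold change was -0.82, and without non-pregnant 4 it was 2.11.

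HHEX, a homeobox factor, was at 3.77 to 25.3 CPM in pregnant cows (median 11.4) and at 10.4 to 15.3 CPM in non-pregnant cows (median 11.5), with the lowest value in pregnant 22 and the highest in pregnant 23 (log2 fold change 0.059, SE 0.35). The corepressors TLE4 and CTBP2 had log2 fold changes of 0.12 (SE 0.19) and -0.079 (SE 0.14). TLE4 ranged from 12.8 to 20.8 CPM in the pregnant and from 11.4 to 21.0 CPM in the non-pregnant group, and CTBP2 at 53.1 to 82.4 and 61.4 to 79.1 CPM, so that both overlapped almost fully. EBF4, of the early B cell factor family, was at 1.29 and 3.56 CPM in pregnant 22 and 23 and at 6.96 to 16.2 CPM in the other 10 cows (log2 fold change 0.033, SE 0.47). The zinc finger gene ZSCAN12, listed as DOWN, had a log2 fold change of 0.13 (SE 0.24).

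Genes of signalling had the listed sign in 3 of 6. ROR2, a receptor for Wnt ligands listed as UP, was at 21.5, 29.2, 30.9, 20.9 and 32.0 CPM in pregnant 20, 5, 7, 8 and 17 and at 4.80 and 5.30 CPM in pregnant 22 and 23. Non-pregnant 2, 4, 9, 13 and 16 had 23.9, 23.1, 28.3, 35.1 and 27.7 CPM, so the low values were those of pregnant 22 and 23, while non-pregnant 4 lay with the others. The log2 fold change was -0.42 (SE 0.44, p = 0.355), and -0.028 (SE 0.18) without the 4 libraries that stood apart. YWHAQ, an adaptor that binds phosphorylated proteins, ranged from 183.0 to 481.8 CPM in the pregnant and from 287.2 to 391.6 CPM in the non-pregnant group (log2 fold change -0.036, SE 0.22). FRS2, an adaptor of fibroblast growth factor receptors, and WDR20, a cofactor of deubiquitinases, had log2 fold changes of 0.024 (SE 0.14) and -0.044 (SE 0.14).

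Genes of glycans and glycated proteins held the largest negative value. SLC35A3, the Golgi transporter that supplies N-acetylglucosamine for glycans and is listed as DOWN, was at 73.6 to 162.4 CPM in pregnant cows (median 109.6) and at 185.5, 68.3, 154.1, 297.7 and 225.8 CPM in non-pregnant 2, 4, 9, 13 and 16. None of the 7 pregnant cows reached the non-pregnant median, while non-pregnant 4 was the lowest of all 12 cows. The log2 fold change was -0.66 (SE 0.33, p = 0.067, adjusted p = 0.712), and -0.78 (SE 0.29, p = 0.022, adjusted p = 0.501) without the 4 libraries that stood apart. It was -0.40 with days from calving as a covariate and -0.43 without non-pregnant 13, the cow with the highest value. FN3KRP, a kinase that acts on glycated proteins, was at 13.6 to 27.4 CPM in pregnant cows (median 19.2) and at 21.9 to 26.9 CPM in non-pregnant cows (median 25.1), with 1 of 7 pregnant cows above that median (log2 fold change -0.27, SE 0.17). GLB1L, a galactosidase-like gene listed as UP, had -0.069 (SE 0.17).

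Genes of mitochondria and lipids had the listed sign in 4 of 5. SUCLG2, which encodes part of succinyl-CoA ligase, an enzyme of the citric acid cycle, was measured at 111.3 to 172.5 CPM in pregnant cows (median 145.4) and at 138.7 to 207.0 CPM in non-pregnant cows (median 151.9), and 5 of 7 pregnant cows were under that median (log2 fold change -0.22, SE 0.14), and it was -0.12 without non-pregnant 2. SMPD4, a sphingomyelinase, ranged from 11.1 to 15.4 CPM in the pregnant and from 9.09 to 12.3 CPM in the non-pregnant group, whose median 6 of 7 pregnant cows exceeded (log2 fold change 0.28, SE 0.14, p = 0.072). HACL1, a lyase of peroxisomal fatty acid oxidation, exceeded the non-pregnant median in pregnant 22 alone. Its log2 fold change was -0.11 (SE 0.22), or -0.32 without pregnant 22 and -0.022 without pregnant 17. Without pregnant 22 and 23 and non-pregnant 4 it was -0.39 (p = 0.034, adjusted p = 0.484). FUNDC2, a protein of the mitochondrial outer membrane listed as UP, had -0.15 (SE 0.12).

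The remaining groups differed little. The RNA and transfer RNA genes had the listed sign in 4 of 4, from -0.22 (SE 0.16) in the RNA-binding protein gene FXR2 to 0.16 (SE 0.15) in the splicing kinase gene CLK2. The genes of ubiquitin, SUMO and protein folding had it in 3 of 5, and RNF19A, a ubiquitin ligase, shared the high values of pregnant 23 (351.2 CPM) and non-pregnant 4 (339.2 CPM) with BHLHE40 and TRIB1, against 111.8 to 174.3 CPM in the other 10 cows. The cell division genes had it in 1 of 3, and SKA2, a kinetochore protein, was at 15.8, 18.3 and 20.1 CPM in pregnant 22, pregnant 23 and non-pregnant 4 against 31.1 to 43.5 CPM in the other 9.

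**Figure D4:**
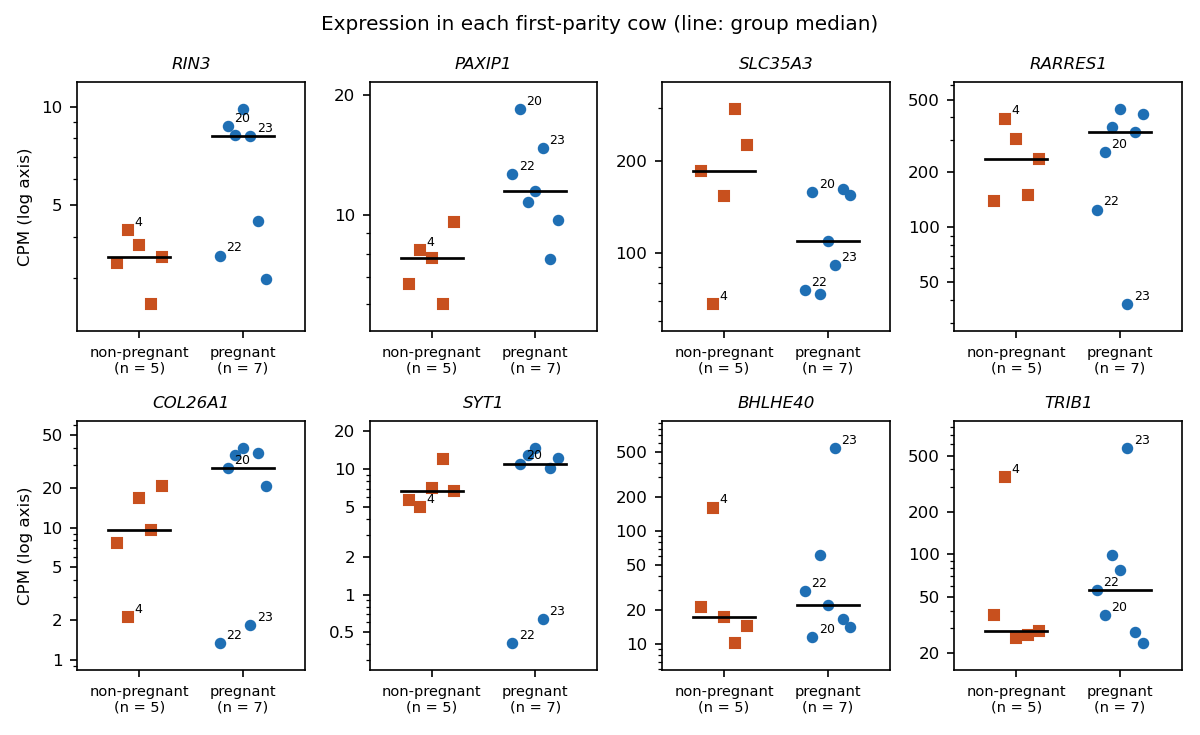
CPM in each first-parity cow, on a log axis, of 8 biomarker genes, with squares for non-pregnant and circles for pregnant cows, a line at the group median and numbers for the 4 cows whose libraries stood apart. COL26A1 and SYT1 are lowest in pregnant 22 and 23, and BHLHE40 and TRIB1 are highest in pregnant 23 and non-pregnant 4.

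Over the 50 genes, non-pregnant 4 and pregnant 22 and 23 lay all 3 below the other 9 cows in 7 genes (COL26A1, SYT1, SCG5, SKA2, CLECL1, DUS2 and ZSCAN12), beside 9.91% of all genes, and all 3 above them in 2 (STAG2 and RNF19A), beside 8.29% of all genes. These 3 cows carry both labels. Without them and pregnant 20, in 4 pregnant against 4 non-pregnant cows, 46 of the 50 genes had the listed sign, 29 of 32 UP and 17 of 18 DOWN, where 50.5% of 15000 genes were higher. By role, the listed sign was then held by 6 of 6 genes of membrane traffic and secretion, 5 of 6 of signalling and 3 of 3 of cell division. It was also held by 4 of 5 genes of ubiquitin, SUMO and protein folding and 3 of 3 of glycans and glycated proteins. In all 12 cows these counts were 3, 3, 1, 3 and 2. The other roles had the same counts as in all 12 cows. The median log2 fold change was 0.25 in the UP and -0.20 in the DOWN genes, beside 0.0042 over all genes. Still no gene passed (0%, smallest adjusted p = 0.238 over all genes and 0.501 among the 50), and 12 of the 50 had an unadjusted p under 0.05, beside 9.8% of all genes. Removing pregnant 20 alone left 35 of 50 with the listed sign, and removing the other 3 left 44. The study chose its list on only part of the Holstein cows of this series, and which cows these were is not known here. It used all but a few of the non-pregnant cows, so some of the 4 non-pregnant cows kept must be among them. The 4 pregnant cows kept may be. A higher count of listed signs is therefore not independent evidence.

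In these 8 cows the groups did not overlap in 7 of the 50 genes, beside 4.05% of all genes, 6 with pregnant cows higher (2.37% of all genes) and 1 with them lower (1.68%). COL26A1 was at 21.2 to 40.6 CPM in the 4 pregnant and 7.74 to 20.6 CPM in the 4 non-pregnant cows (log2 fold change 1.28, SE 0.33, p = 0.0031, adjusted p = 0.501). RARRES1 was at 336.2 to 448.5 CPM against 141.0 to 307.8 CPM (0.90, SE 0.26, p = 0.0060), and SMARCAL1 at 36.6 to 49.9 CPM against 27.5 to 32.4 CPM (0.50, SE 0.14, p = 0.0048). SUCLG2 was lower without overlap, at 109.0 to 148.0 CPM against 150.4 to 209.7 CPM (-0.40, SE 0.16, p = 0.029). EBF4, CLECL1 and SEL1L, a component of protein degradation at the endoplasmic reticulum, were higher without overlap, EBF4 by a small margin (10.86 against 10.83 CPM). The 4 cows left out were known from these data, so these values describe the remaining cows and test nothing about the whole group.

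The first-parity difference was set beside that of the 11 cows of parity 2 or 3, which share no cow with it. In those cows no gene of 15042 passed either (0%), and 713 (4.74%) had an unadjusted p under 0.05, while DESeq2 called 4 of 21772 (0.0184%). The log2 fold change had the same sign in both parity classes for 8371 of 14769 genes (56.7%), and for 775 of the 1026 genes with an unadjusted p under 0.05 in the first-parity cows (75.5%). Without pregnant 20 and pregnant 21, the library of parity 2 or 3 that was left out with it for its reads outside genes, these shares were 49.2% of 14744 and 58.1% of 935.

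Of the 50 biomarker genes, 38 had the listed sign in the cows of parity 2 or 3 and 37 in the first-parity cows. In the cows of parity 2 or 3, 27 of 32 UP genes were higher in pregnant cows, beside 47.6% of all genes tested there, and 11 of 18 DOWN genes were lower, beside 52.4%. In 29 genes the listed sign was found in both classes, in 8 in the first-parity cows alone, in 9 in the others alone and in 4 in neither. The Holstein cows on which the study chose the list include some of parity 2 or 3. These counts are therefore not independent evidence either. The log2 fold changes of the 6 genes of matrix, cytoskeleton and cell surface were above 0 in both classes, with a median of 0.17 in first-parity cows and 0.59 in the others. None of the 6 had an unadjusted p under 0.05 in either class, and the log2 fold change of TSPAN6 was -0.0038 in first-parity cows without pregnant 20. RIN3 had 0.92 (SE 0.33) in first-parity cows and 0.32 (SE 0.26) in the others, PAXIP1 0.67 (SE 0.23) and 0.39 (SE 0.25), and SLC35A3 -0.66 (SE 0.33) and -0.21 (SE 0.39). BHLHE40 had opposite signs, 1.15 (SE 1.13) and -1.52 (SE 0.79), as had TRIB1 with 0.43 (SE 0.96) and -0.93 (SE 0.56).

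None of these contrasts between the classes passed the test of the difference itself. The interaction of later pregnancy and parity class, fitted over all 23 cows, called 0 of 15743 genes (0%, smallest p = 0.0011, smallest adjusted p = 0.992), with 472 (3%) at an unadjusted p under 0.05. DESeq2 called 0 of 23155 genes, with 758 (3.27%) at an unadjusted p under 0.05. None of the 50 biomarker genes had an unadjusted p under 0.05. The first-parity difference minus that of parity 2 or 3 was 2.64 on the log2 scale for BHLHE40 (95% interval -0.41 to 5.69, p = 0.086), 0.60 for RIN3 (-0.27 to 1.46), 0.26 for PAXIP1 (-0.42 to 0.95) and -0.45 for SLC35A3 (-1.55 to 0.64). These intervals leave room for differences between the classes as large as the first-parity changes themselves.

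**Figure D5:**
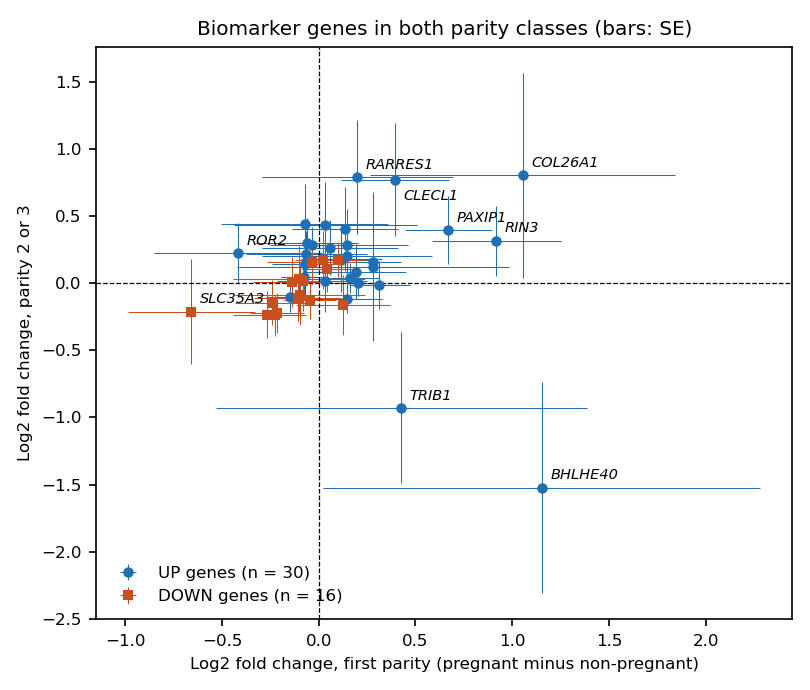
Log2 fold change of pregnant minus non-pregnant cows for 46 biomarker genes in first-parity cows (horizontal) and in cows of parity 2 or 3 (vertical), with bars for the standard error. Most genes lie near 0 on both axes, COL26A1, RIN3 and PAXIP1 lie above 0 on both, and BHLHE40 and TRIB1 lie above 0 on the horizontal and below it on the vertical axis.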

How the data were processed

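Biopsies kept in RNAlater gave total RNA, and libraries followed the stranded TruSeq total RNA protocol of Illumina, per the labels. The submitters' processing notes name STAR, HTSeq and the build UMD3.1, and the deposited values are raw read counts per Ensembl gene as the authors made them. The sources used here do not give tool versions, annotation release or strand setting, so reads of overlapping or antisense genes may be shared. Rows that HTSeq adds for reads outside genes or ambiguous were left out of library sizes and tests. There was 1 library per cow, so n counts cows. No pair of libraries within a group resembled repeat deposits of 1 library (31 pairs, lowest chi-square per degree of freedom 35.7, genes with at least 10 counts).

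Counts of the 12 first-parity cows (9171434 to 27357249 in genes) were filtered with edgeR's default filter (14954 of 24616 genes), TMM-normalized and tested with the quasi-likelihood test of edgeR 4.0.16 in R 4.3.3, pregnant minus non-pregnant, at an adjusted p of 0.05 over all genes tested. The cows of parity 2 or 3 were fitted separately, and the interaction with parity class over all 23 cows. DESeq2 1.42.0, limma 3.58.1 (voom with quality weights), other filters and size factors, days from calving as a covariate and left-out libraries were alternatives. CPM use TMM-scaled library sizes. Each standard error is the log2 fold change divided by the square root of its F statistic.

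The cows, gene lists and tests were chosen with earlier results of these data known. Single values were planned for biomarker genes with an unadjusted p under 0.05, the 3 largest log2 fold changes in each direction and genes discussed by the paper. Other biomarker genes were named after their values were seen. Single values of 4 of the 50 genes are not reported here. Symbols come from the paper's list of 50 genes, since the gene table at hand paired no Ensembl identifier with a symbol. Other pathway lists and markers of endometrial cell types were therefore not analysed here, and the labelled tissue was not checked against markers. Of genes without a symbol, 2 per direction are printed.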

Additional observations from a re-analysis of the deposited data

Results flagged for a closer look

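Of 112 groups of values examined, 13 had an end value far from the nearest of its group by Dixon's criterion. Chance meets it in about 1 of 20 groups of normally distributed values. The CPM were not log-transformed and the groups share the same cows, so that rate need not hold here. Pregnant 23 stood out with 543.6 CPM of BHLHE40, 567.3 CPM of TRIB1 and 351.2 CPM of RNF19A, each the highest of the 7 pregnant cows, and with 0.822 CPM of PPP1R42, the lowest. Non-pregnant 4 stood out in the same 3 genes, with 161.0 CPM of BHLHE40, 353.3 CPM of TRIB1 and 339.2 CPM of RNF19A, and with the lowest SCG5 of its group, 6.24 CPM. Pregnant 22 was highest in HACL1, at 62.0 CPM, and in NEIL2, at 22.1 CPM. Non-pregnant 13 was highest in SYT1, at 12.1 CPM. Non-pregnant 2 was highest in ENSBTAG00000014328, at 311.4 CPM, and in the share of ambiguous reads, 0.00941%. Of the 13, 10 fell on non-pregnant 4 and pregnant 22 and 23.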

How the results depend on the processing

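No paired analysis was possible because the pregnant and non-pregnant cows are different animals with 1 biopsy each. Over the alternatives run, edgeR and limma called no gene in the first-parity cows, and DESeq2's Wald test called 1. For cows of parity 2 or 3 DESeq2 called 4 and the other settings 0, and for the interaction every setting called 0. The number of genes at an unadjusted p under 0.05 (1041) was 2039 without a filter, 1667 with DESeq2, 1825 with limma voom and 685 with days from calving as a covariate, and between 535 (without non-pregnant 2) and 1699 (without non-pregnant 4) with 1 cow left out, 1677 without pregnant 8 and 655 without non-pregnant 13 or 16. The cause was not tested. The number of biomarker genes with the listed sign (37) ran from 34 to 42 with 1 cow left out and from 35 to 46 otherwise, and was 37 with DESeq2 size factors. The single genes followed were 46 of the biomarker genes and the 4 genes printed by identifier, which were picked by their p. Of these 50, 30 kept their sign in all 23 settings, among them the 4 printed by identifier. The other 20 did not, all but BHLHE40 and TRIB1 with log2 fold changes within 0.13 of 0 in the main fit. In other settings some of them lay further from 0, such as PPIC and NEIL2. With DESeq2's test BHLHE40 was at -0.80 and TRIB1 at -0.84. With limma voom PPIC was at 0.084, YWHAQ 0.016, STAG2 -0.0075, FRS2 -0.0051, SKA2 0.075 and PIK3C3 -0.042. With days from calving HHEX was at -0.044, CCNG2 0.15, SCG5 0.0070 and EBF4 -0.10. Without pregnant 22 and 23 and non-pregnant 4, PPIC was at 0.26, YWHAQ 0.13, STAG2 -0.021, FRS2 -0.048, SKA2 0.051 and SCG5 0.044, and without these and pregnant 20, PPIC was at 0.37, YWHAQ 0.15, STAG2 -0.067, FRS2 -0.013, GLB1L 0.067, SKA2 0.098, PIK3C3 -0.11 and SCG5 0.0061. Without pregnant 20, DUS2 was at -0.060 and TSPAN6 at -0.0038. With 1 cow left out, BHLHE40 ran from -0.79 to 2.66, TRIB1 from -0.82 to 2.11, HHEX from -0.19 to 0.22, RNF19A from -0.40 to 0.28, NEIL2 from -0.47 to 0.036, EBF4 from -0.16 to 0.23, SCG5 from -0.29 to 0.093, PPIC from -0.27 to 0.087, YWHAQ from -0.14 to 0.072, CCNG2 from -0.18 to 0.065, SKA2 from -0.18 to 0.071, DUS2 from -0.060 to 0.14, RFWD2 from -0.13 to 0.018, ZSCAN12 from -0.016 to 0.22, STAG2 from -0.017 to 0.099, FRS2 from -0.040 to 0.080, WDR20 from -0.11 to 0.0021 and TSPAN6 from -0.0038 to 0.20. With 7 against 5 cows, the interval of a typical gene reached 0.60 on the log2 scale to either side. That interval is not adjusted over genes, and edgeR called no gene among the 871 with an estimated change of 2-fold or more. The shares of matching sign without pregnant 20 and 21 and the overlap counts without the libraries that stood apart were added after the data were seen.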

Other observations

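The gene with the smallest p for the interaction with parity class, known only by an identifier, had 1802 CPM in pregnant 23 and at most 7.07 CPM in every other first-parity cow. Its log2 fold change was 7.70 (SE 2.64, edgeR adjusted p = 0.712) in first-parity cows. In cows of parity 2 or 3 it was -6.62 (SE 2.46, adjusted p = 0.908). The interaction did not pass either (adjusted p = 0.992), and single values of the cows of parity 2 or 3 are not given here.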
